A study of Lotus japonicus with 24 samples.

Results

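The pectin modifying enzyme genes of the legume Lotus japonicus were taken as the genes whose description in the expression table contained the words pectinesterase, pectate lyase or polygalacturonase, which gave 187 of 30243 genes. By the words of the same descriptions they were 71 polygalacturonases, 44 genes named as a pectinesterase with an inhibitor domain, 32 other pectinesterases, 25 pectate lyases, 7 pectinesterase inhibitors, 5 polygalacturonase inhibitors and 3 non-catalytic polygalacturonase subunits. The study compared the Ljasn1-2 mutant with wild-type plants (WT) of the Gifu ecotype, with both genotypes grown either in symbiosis (S) or without it (NS), by sequencing polyA RNA of shoots and roots. Ljasn1-2 is a single homozygous line with an insertion of the retrotransposon LORE1 in LjASN1, one of the asparagine synthetase genes, selected to be free of further insertions. S plants were nodulated by Mesorhizobium loti and had no other nitrogen source, so that the S root samples held nodules, whereas NS plants received ammonium nitrate and potassium nitrate. The 8 groups were Ljasn1-2 and WT shoots S, Ljasn1-2 and WT shoots NS, Ljasn1-2 and WT roots S, and Ljasn1-2 and WT roots NS. Every group had 3 libraries, and each library was made from 10 pooled plants. The labels give 40 days of growth for every group, but the study's methods state a later day of harvest for S than for NS plants, so that plant age and growth condition cannot be told apart in the comparisons of S with NS.

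Homogalacturonan, the main pectin of the plant cell wall, is delivered to the wall with most of its acid groups methylesterified. Pectinesterases remove the methyl esters, and pectinesterase inhibitors bind and block them; many plant pectinesterases are made with such an inhibitor domain in front of the catalytic one. Polygalacturonases and pectate lyases cut the demethylesterified chain, by hydrolysis and by elimination. Polygalacturonase inhibitors are leucine-rich repeat proteins known in bean and other plants for blocking the polygalacturonases of fungi, and the non-catalytic subunit was described in tomato fruit as a partner of a polygalacturonase. In legume roots, localised pectin degradation accompanies the passage of rhizobia through infection threads. The names used below are those of the best matching annotated protein of the species given in the table, and several loci share a name, so each gene is given with its identifier.

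The libraries held between 37503968 and 66820694 reads assigned to genes. LjASN1 itself was at 3.76 to 5.89 FPKM (reads scaled by gene length and library size) in Ljasn1-2 shoots S, against 78.8 to 98.6 FPKM in WT shoots S, and at 52.7 to 119 FPKM in Ljasn1-2 roots NS, against 563 to 695 FPKM in WT roots NS. The leghemoglobin genes, which mark nodules, summed to 15018, 12770 and 7856 FPKM in the Ljasn1-2 roots S libraries 1 to 3 and to 13381, 14161 and 6592 FPKM in those of WT, and to no more than 1.03 FPKM in any other library. The 20 genes named chlorophyll a-b binding protein summed to at least 25084 FPKM in each shoot library and to at most 515 FPKM in each root library.

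A large share of the family had few or no reads assigned in these organs. Of the 187 members, 17 had no read in any of the 24 libraries, 69 others stayed below 1 FPKM in all of them, and 98 reached 1 FPKM in 3 libraries or more, which is 52.4% of the members, against 62.0% of all genes. Of these 98, 53 were at 1 FPKM or more in every library. The spans of 36 members overlapped another gene on the opposite strand, and 10 of these 36 reached 1 FPKM in at least 3 libraries. The strand setting of the counting is not given, and the part of these overlaps in the low values was not tested. Detection was most complete among the inhibitors of polygalacturonase (5 of 5), the non-catalytic subunits (3 of 3) and the pectinesterase inhibitors (6 of 7), and least so among the polygalacturonases (30 of 71) and the pectinesterases with an inhibitor domain (19 of 44). Of the other pectinesterases, 19 of 32 reached that level, as did 16 of 25 pectate lyases. The members were spread over all chromosomes, with 56 on chromosome 1, and 75 of them lay in 32 runs of neighbouring members, 23 of which were pairs.

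**Figure D1:**
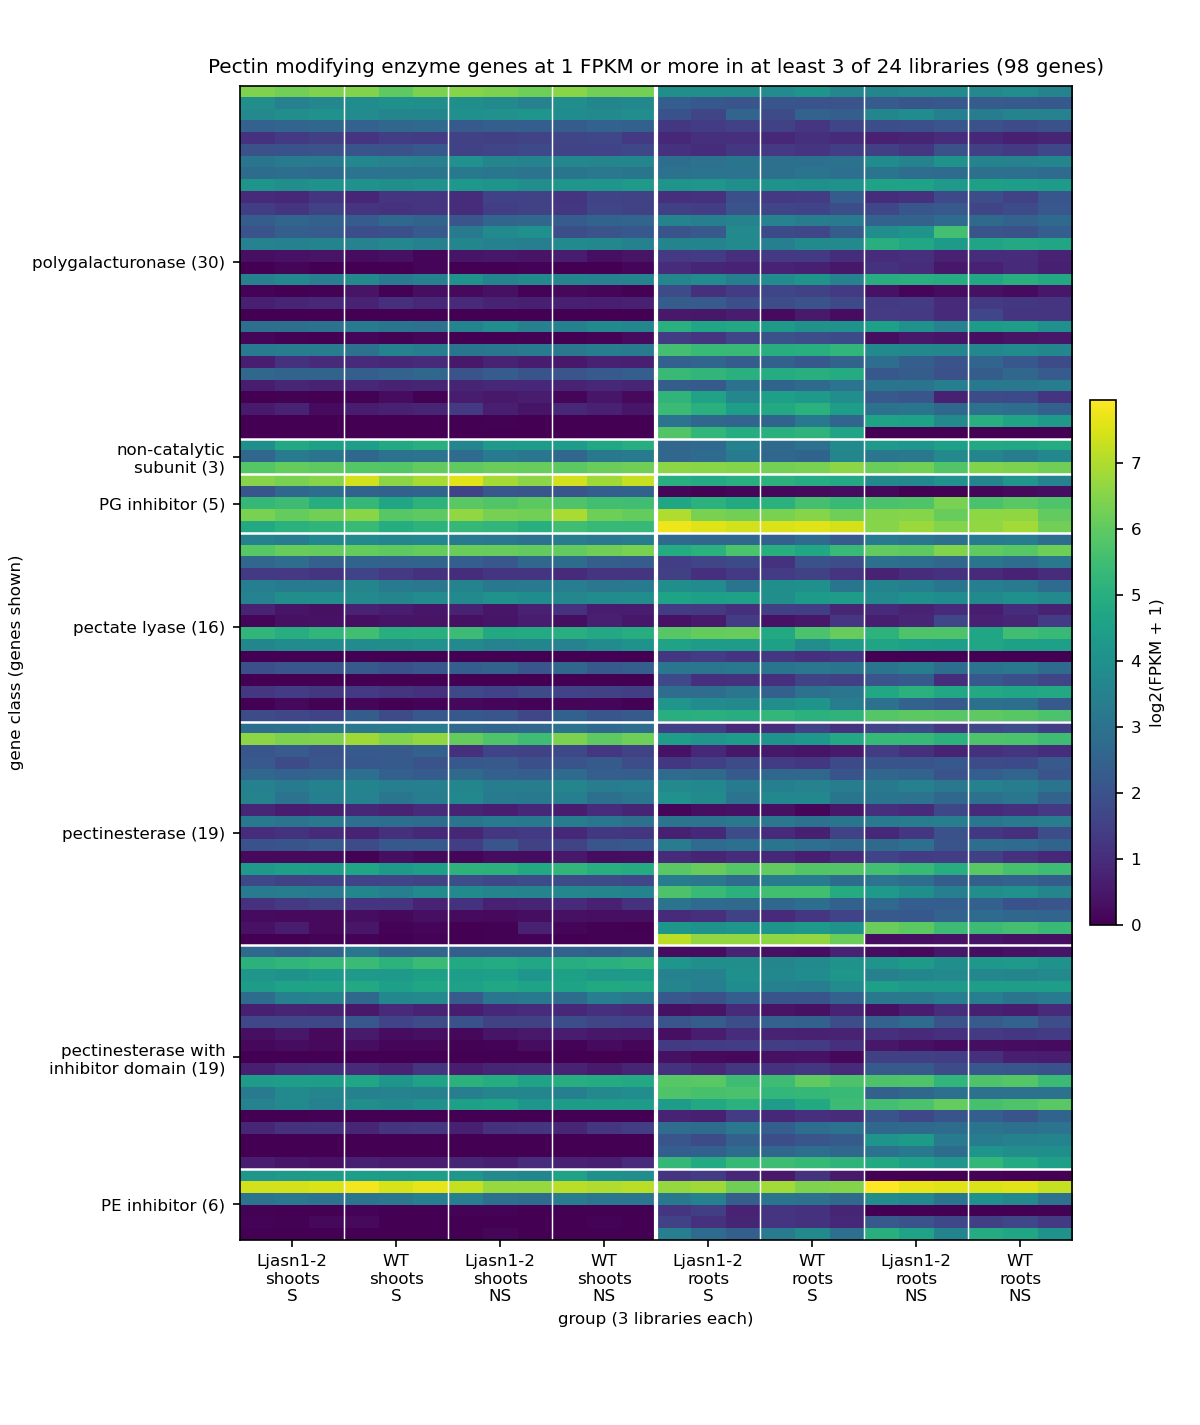
Level of the 98 members that reached 1 FPKM in at least 3 of the 24 libraries, as log2(FPKM + 1), with 1 line per gene, grouped by class, and 1 column per library, 3 for each of the 8 groups named below the columns. Of these genes 53 were read at 1 FPKM or more in every column, and 6 only in the 6 columns of roots S.

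The summed level of the 187 members differed little between the groups of a tissue. It was 1201 ± 28.1 FPKM in Ljasn1-2 shoots S and 1302 ± 140 FPKM in WT shoots S, 1238 ± 138 FPKM in Ljasn1-2 shoots NS and 1292 ± 80.3 FPKM in WT shoots NS (mean ± SD, n = 3 each, as for all sums here). In roots the sums were 1678 ± 136 FPKM in Ljasn1-2 roots S and 1552 ± 41.7 FPKM in WT roots S, 1570 ± 78.3 FPKM in Ljasn1-2 roots NS and 1535 ± 117 FPKM in WT roots NS. These sums were not tested, and the near-constant totals covered classes that went in different directions.

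By summed level, the classes that were higher in S roots were the pectinesterases, the polygalacturonases and their inhibitors. The 32 pectinesterases without an inhibitor domain in their name summed to 319 ± 41.8 FPKM in Ljasn1-2 roots S, against 211 ± 33.3 FPKM in Ljasn1-2 roots NS, and to 287 ± 29.0 FPKM in WT roots S, against 216 ± 20.01 FPKM in WT roots NS. A single gene, LotjaGi1g1v0017300, had a mean of 102 FPKM over the roots S libraries of both genotypes, against 0.281 FPKM over those of roots NS. The higher pectinesterase sum was thus not a rise of the whole class, in which more genes were called lower than higher, as given below. The polygalacturonases summed to 330 ± 40.9 FPKM in Ljasn1-2 roots S, against 249 ± 5.60 FPKM in Ljasn1-2 roots NS, and to 281 ± 16.1 FPKM in WT roots S, against 226 ± 12.1 FPKM in WT roots NS. The pectinesterase inhibitors had the reverse order, with 114 ± 26.0 FPKM in Ljasn1-2 roots S, against 249 ± 44.7 FPKM in Ljasn1-2 roots NS, and 115 ± 17.1 FPKM in WT roots S, against 211 ± 30.7 FPKM in WT roots NS. In each of the 8 groups 82.8% to 87.4% of that last sum came from a single gene, LotjaGi4g1v0454800.

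The first comparison asked how the family differed between nodulated and ammonium nitrate-fed roots. Each gene was tested with limma on log2(FPKM + 1), in the 6 libraries compared, if it reached 1 FPKM in at least 3 of them. A gene was called at an adjusted p below 0.05, with Benjamini-Hochberg adjustment over all genes tested, and every adjusted p below comes from such a fit. A difference is given on that log2 scale, which understates the change of genes near or below 1 FPKM, with its standard error. In Ljasn1-2 roots, 20 of the 89 members tested were called higher in S and 28 lower, which is 22.5% and 31.5% of them, beside 12.7% and 15.1% of all genes tested. In WT roots, 18 of 87 were called higher and 27 lower (20.7% and 31%), beside 11.6% and 12.5% of all genes. Any member that passed the filter through the S or the NS libraries alone was bound to differ, on the higher or the lower side. The counts include such members, and their number on the lower side is not given here. The median difference of the members was -0.03 in Ljasn1-2 and -0.18 in WT, and that of all genes 0.01 in both.

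The 2 genotypes, whose libraries are separate, called largely the same members in roots, but their sets of calls are not independent. Same-numbered libraries of the 2 genotypes deviated together, with correlations of 0.61 to 0.84 in roots NS and 0.54 to 0.83 in roots S. The overlap of calls over all genes is not given here, so the shares below are not set against a background. The 17 members called higher in both were 85% of those called in Ljasn1-2 and 94.4% of those called in WT, the 21 called lower in both were 75% and 77.8%, and no member was called in opposite directions. The polygalacturonases were called in both directions, 10 higher and 7 lower of 29 in Ljasn1-2 and 9 higher and 7 lower of 28 in WT. The pectinesterases with an inhibitor domain were mostly lower, with 2 higher and 7 lower of 17 in Ljasn1-2 and 2 higher and 8 lower of 16 in WT. Of the other pectinesterases 3 were higher and 5 lower of 17 in Ljasn1-2, and 3 were higher and 4 lower of 17 in WT. The pectate lyases gave 3 higher and 4 lower of 15 in Ljasn1-2 and 2 higher and 5 lower of 15 in WT.

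A root sample is a mixture, so that fewer cells of a type and less RNA per cell cannot be told apart in any of these values. The 5 genes named Casparian strip membrane protein, which mark the root endodermis, summed to 37.6 to 59.3 FPKM in the roots S libraries and to 77.4 to 183 FPKM in those of roots NS, and all 5 were called lower in S in both genotypes. The part of these markers and of leghemoglobin in the member calls was not tested. The fits without 1 library called 29 to 44 members of 79 to 86 tested in Ljasn1-2 roots. In WT roots they called 30 to 48 members of 80 to 84 tested. Of the 48 calls in Ljasn1-2 roots, 34 were made in every such fit that tested the member, and of the 45 in WT roots, 35. Some members, among them those read in roots S alone, were not tested in some of these fits. Without Ljasn1-2 roots S replicate 1 the count in Ljasn1-2 was 30, and without replicate 2 it was 29, in both with 11 of 81 called higher (13.6%, beside 5.84% and 5.36% of all genes). Without WT roots S replicate 1 or 2, 8 of 80 members were called higher in WT (10%, beside 5.36% and 5.41% of all genes).

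**Figure D2:**
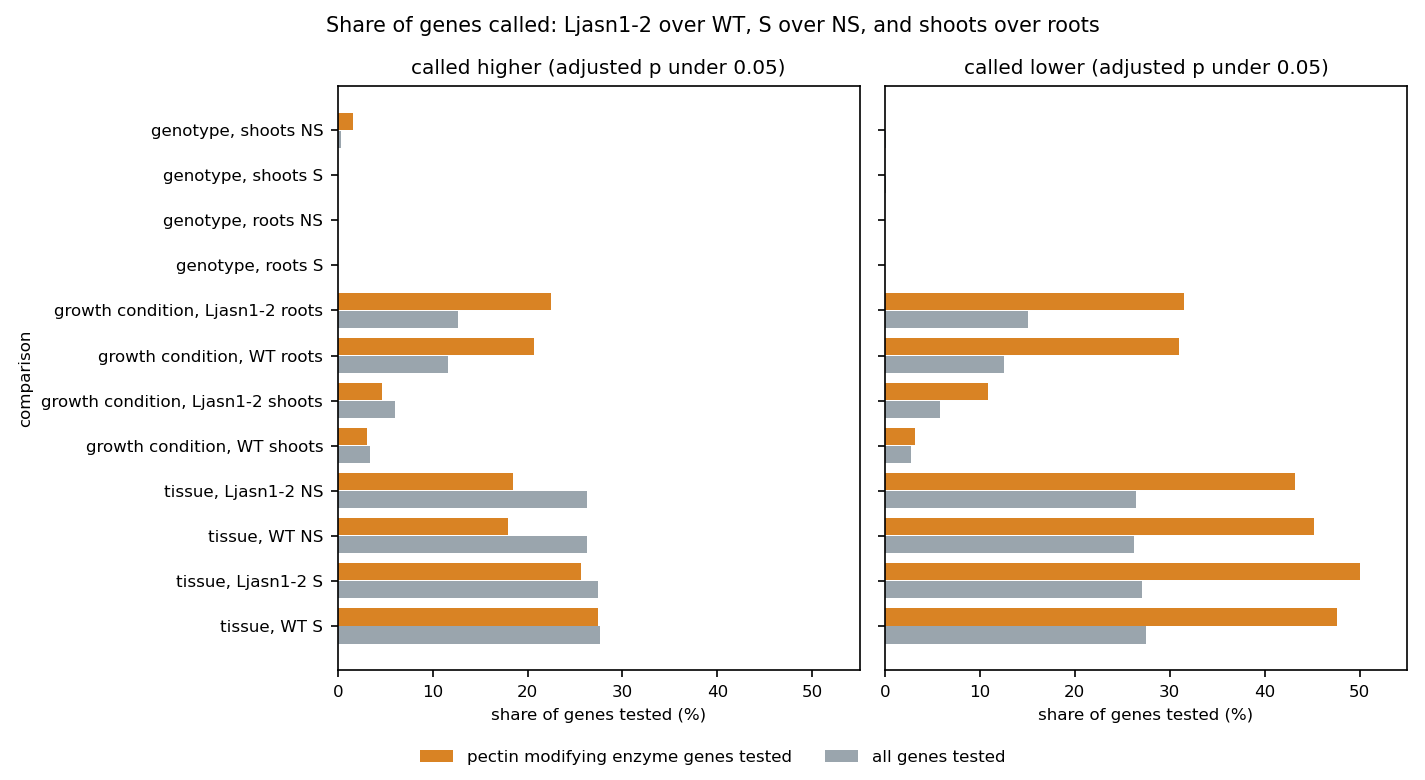
Share of the genes tested that were called in each of the 12 comparisons, in percent, with genes called higher in the left panel and genes called lower in the right one (members in orange, all genes in grey). The members stand above all genes in both directions in the S over NS comparisons of roots, and above all genes only on the lower side in the comparisons of shoots with roots.

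One part of the family was read in nodulated roots and hardly elsewhere. These 6 members, 3.21% of the family, were at 1 FPKM or more in each of the 6 roots S libraries and below 1 FPKM in the other 18, as were 233 genes or 0.77% of all genes. They were 3 polygalacturonases, 1 pectinesterase, 1 pectinesterase with an inhibitor domain and 1 pectate lyase. Because these members passed the filter on low values through the roots S libraries alone, they were bound to differ between S and NS roots. With a wider rule, 16 members (8.56%) were at 1 FPKM or more in every roots S library and higher in each of them than in each of the other 18, beside 4.03% of all genes.

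The largest difference between S and NS roots on the log2(FPKM + 1) scale belonged in both genotypes to LotjaGi1g1v0017300, named pectinesterase QRT1 after the Arabidopsis enzyme needed for separation of the pollen tetrad (chromosome 1, 2167438 to 2172571, minus strand). Its level was 141, 101 and 99.9 FPKM in Ljasn1-2 roots S, against 0.227, 0.242 and 0.304 FPKM in Ljasn1-2 roots NS. In WT it was 96.1, 101 and 71.3 FPKM in roots S, against 0.356, 0.293 and 0.262 FPKM in roots NS. Every nodulated root library was thus far above every other library, and no shoot library exceeded 0.0505 FPKM. The log2 difference was 6.50 ± 0.18 in Ljasn1-2 (adjusted p = 3.9e-07) and 6.10 ± 0.16 in WT (adjusted p = 9.4e-07). This gene alone made up 35.7% of the summed pectinesterase level in Ljasn1-2 roots S and 31.2% of it in WT roots S.

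LotjaGi3g1v0292600, a polygalacturonase named after Arabidopsis At3g15720 (chromosome 3, 59645139 to 59659645, minus strand), was read almost only in nodulated roots. It had 54.4, 37.9 and 29.6 FPKM in Ljasn1-2 roots S, against 0, 0.0125 and 0 FPKM in Ljasn1-2 roots NS, and 32.0, 35.0 and 23.9 FPKM in WT roots S, against 0 in each WT roots NS library. All 12 shoot libraries were at 0. In WT roots it was at least 5410-fold higher in S, taking 3 reads over the NS group as the limit of detection, and in Ljasn1-2 roots 17772 reads stood against 2, a ratio of 11400 (95% counting interval 3140 to 93800). The fitted differences were 5.33 ± 0.22 in Ljasn1-2 and 4.95 ± 0.16 in WT (adjusted p = 2.6e-06 and 1.6e-06). In both genotypes replicate 3 was the lowest of the roots S libraries, as it was for leghemoglobin.

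Another 2 polygalacturonases, both named after Arabidopsis At1g48100, were read in all roots and were higher in nodulated ones. LotjaGi6g1v0263200 (chromosome 6, 57687044 to 57692272, plus strand) had 40.1, 36.5 and 32.4 FPKM in Ljasn1-2 roots S, against 3.58, 4.11 and 2.91 FPKM in Ljasn1-2 roots NS, and 29.4, 31.2 and 28.6 FPKM in WT roots S, against 4.05, 5.12 and 3.87 FPKM in WT roots NS. The groups did not overlap, and the differences were 3.04 ± 0.17 in Ljasn1-2 and 2.53 ± 0.14 in WT (adjusted p = 1.3e-05 and 1.9e-05). LotjaGi2g1v0244200 (chromosome 2, 70813090 to 70815911, plus strand) had 36.0, 22.7 and 11.9 FPKM in Ljasn1-2 roots S, against 3.68, 3.32 and 0.671 FPKM in Ljasn1-2 roots NS, and 21.4, 18.2 and 13.9 FPKM in WT roots S, against 2.61, 2.45 and 1.29 FPKM in WT roots NS. Its libraries were more spread, with replicate 3 lowest in all 4 groups, and the differences were 2.80 ± 0.49 and 2.60 ± 0.23 (adjusted p = 0.0046 in Ljasn1-2 and 0.00021 in WT).

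LotjaGi4g1v0408500, a pectinesterase with an inhibitor domain named after number 51 of the Arabidopsis set (chromosome 4, 78453971 to 78457146, minus strand), was one of only 2 of its class called higher in S roots of each genotype. It had 53.0, 49.3 and 50.3 FPKM in Ljasn1-2 roots S, against 4.56, 5.32 and 6.55 FPKM in Ljasn1-2 roots NS. In WT it had 37.8, 37.9 and 39.7 FPKM in roots S, against 6.89, 7.07 and 6.79 FPKM in roots NS. The replicates of this gene were close to each other, and the shoots, at 8.76 to 13.9 FPKM, lay between the S and NS roots. The differences were 3.01 ± 0.16 in Ljasn1-2 and 2.32 ± 0.12 in WT (adjusted p = 1.2e-05 and 1.3e-05), and the difference between them, 0.70 ± 0.18, was not called (adjusted p = 0.9).

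The pectate lyases gave a pair of neighbouring genes of one name that went opposite ways, chosen after their values were seen. LotjaGi6g1v0096900, named pectate lyase 5 (chromosome 6, 21008454 to 21011906, minus strand), had 1.45, 1.62 and 1.36 FPKM in Ljasn1-2 roots S and 1.43, 1.08 and 1.34 FPKM in WT roots S, against 0 in all 6 roots NS libraries, so that it was at least 158-fold higher in S in Ljasn1-2 and at least 129-fold higher in WT. The next member on the chromosome, LotjaGi6g1v0097000 (21034177 to 21037132, minus strand), also named pectate lyase 5, had 1.80, 2.18 and 2.45 FPKM in Ljasn1-2 roots S, against 6.68, 6.28 and 5.14 FPKM in Ljasn1-2 roots NS, and 1.23, 2.93 and 2.64 FPKM in WT roots S, against 7.47, 6.18 and 8.01 FPKM in WT roots NS. Among root libraries the first was thus read in nodulated ones only, and the second was called lower there (-1.16 ± 0.16 in Ljasn1-2 and -1.37 ± 0.23 in WT, adjusted p = 0.0014 and 0.0046).

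Further members of the nodulated root set, leaving aside the polygalacturonase inhibitor LotjaGi1g1v0723900 described below, were lower in level or in difference. The 3 with the highest level, chosen after their values were seen, were the polygalacturonase LotjaGi1g1v0480000 at 40.4 to 46.3 FPKM in Ljasn1-2 roots S and 30.0 to 36.6 FPKM in WT roots S (1.73 ± 0.15 and 1.33 ± 0.14 over NS), the pectinesterase LotjaGi1g1v0217800 at 33.3 to 52.3 and 28.7 to 45.7 FPKM in the same groups (1.52 ± 0.27 and 1.47 ± 0.22), and the polygalacturonase LotjaGi1g1v0006800_LC at 20.8 to 42.1 and 20.7 to 32.7 FPKM (2.07 ± 0.26 and 2.03 ± 0.21). All 3 were called in both genotypes. The polygalacturonase LotjaGi2g1v0124100, at 1.35 to 2.20 FPKM in Ljasn1-2 roots S and 2.45 to 2.89 FPKM in WT roots S, stayed below 0.5 FPKM in all other libraries and was called as well (1.02 ± 0.15 and 1.47 ± 0.11).

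**Figure D3:**
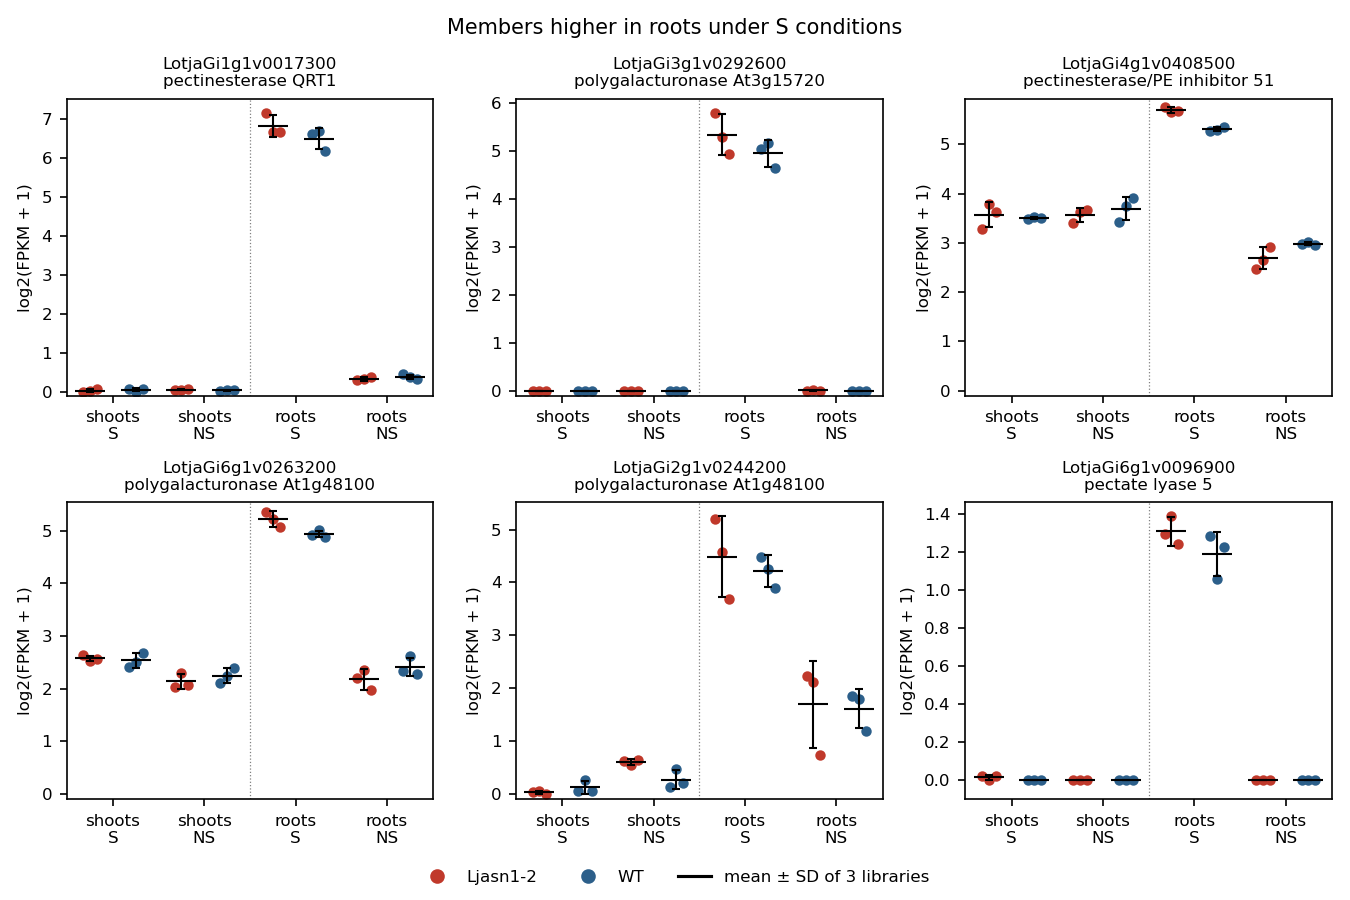
The 6 members shown were called higher in S than in NS roots of both genotypes, and each panel gives log2(FPKM + 1) in each library, with shoots left of roots and S left of NS. Points are libraries (Ljasn1-2 in red, WT in blue) and lines are the mean ± SD of 3. For LotjaGi1g1v0017300 and LotjaGi3g1v0292600 all groups but the nodulated roots lie at or near 0, whereas LotjaGi4g1v0408500 was also read in shoots.

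Of the 5 polygalacturonase inhibitors, 2 were called higher in S roots of both genotypes. LotjaGi1g1v0723900, named polygalacturonase inhibitor 2 (chromosome 1, 129508364 to 129521066, plus strand), was the most abundant member in S roots, with 215, 189 and 167 FPKM in Ljasn1-2 roots S, against 90.0, 107 and 87.8 FPKM in Ljasn1-2 roots NS, and 182, 187 and 172 FPKM in WT roots S, against 101, 115 and 75.8 FPKM in WT roots NS. All S roots were above all NS roots, and the differences were 1.00 ± 0.19 (adjusted p = 0.0073) in Ljasn1-2 and 0.91 ± 0.20 (adjusted p = 0.014) in WT. The WT call was lost without WT roots NS replicate 1 (adjusted p = 0.0512) and without WT roots S replicate 1 or 2 (adjusted p = 0.063 and 0.0628). LotjaGi4g1v0028300, named polygalacturonase inhibitor 1 after the bean protein (chromosome 4, 3524743 to 3530065, minus strand), had 31.5, 28.3 and 31.4 FPKM in Ljasn1-2 roots S, against 13.1, 12.2 and 15.1 FPKM in Ljasn1-2 roots NS, and 33.9, 29.4 and 26.6 FPKM in WT roots S, against 11.1, 16.8 and 10.4 FPKM in WT roots NS. Again every S library was above every NS library (1.12 ± 0.15 and 1.19 ± 0.20, adjusted p = 0.0015 in Ljasn1-2 and 0.0051 in WT).

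The other polygalacturonase inhibitors were not called higher in S roots. LotjaGi3g1v0329500, also named polygalacturonase inhibitor 2 and chosen after its values were seen, had 25.1, 32.9 and 27.5 FPKM in Ljasn1-2 roots S, against 49.6, 53.5 and 80.5 FPKM in Ljasn1-2 roots NS, and 32.6, 48.2 and 40.8 FPKM in WT roots S, against 49.4, 59.1 and 53.7 FPKM in WT roots NS. Every S library was below every NS library of its genotype, and the difference was called in Ljasn1-2 (-1.05 ± 0.23, adjusted p = 0.011, lost without S replicate 1 at 0.05117) and in WT only with the replicate block (-0.42, adjusted p = 0.15 without and 0.010 with it). It was also called lower in Ljasn1-2 shoots S (-0.65 ± 0.14, adjusted p = 0.017, lost without S replicate 1 or 3 at 0.0576 and 0.0913). LotjaGi1g1v0724100, next but one to LotjaGi1g1v0723900 on chromosome 1, was at 57.7 to 126 FPKM over the 24 libraries and was called in none of the 12 comparisons. Between the pair lies LotjaGi1g1v0724000, which stayed at 0.219 FPKM or less in all root libraries.

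Among the members lower in nodulated roots, LotjaGi1g1v0583900, named pectate lyase 8 (chromosome 1, 112338867 to 112345597, minus strand), had the largest difference in both genotypes. It had 6.17, 6.24 and 7.70 FPKM in Ljasn1-2 roots S, against 26.3, 32.8 and 26.3 FPKM in Ljasn1-2 roots NS, and 4.48, 7.02 and 7.67 FPKM in WT roots S, against 26.6, 24.7 and 27.1 FPKM in WT roots NS. Its groups were far apart (-1.93 ± 0.16 and -1.90 ± 0.19, adjusted p = 0.00014 and 0.00044), and shoots were at 1.12 to 2.51 FPKM. The pectate lyase LotjaGi2g1v0079900, another root gene, was at 30.2 to 32.1 FPKM in Ljasn1-2 roots S, against 57.1 to 60.8 FPKM in Ljasn1-2 roots NS, and at 32.7 to 37.2 FPKM in WT roots S, against 50.9 to 62.1 FPKM in WT roots NS (-0.89 ± 0.15 and -0.69 ± 0.15, adjusted p = 0.0035 and 0.014), and its WT call was lost without WT roots NS replicate 1 or 2 or S replicate 1 or 2 (adjusted p = 0.05003 to 0.0742). LotjaGi6g1v0014200, named pectate lyase 1 and at 25.5 to 85.9 FPKM over all libraries, was lower in S roots by the same test (-0.93 ± 0.25 and -1.01 ± 0.20, adjusted p = 0.028 and 0.0088), but its Ljasn1-2 call was lost without any 1 of the 6 root libraries other than S replicate 3 (adjusted p = 0.0663 to 0.1169).

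Pectinesterases of roots were also among the members called lower in S. LotjaGi3g1v0207900, named pectinesterase 2 after the orange enzyme (chromosome 3, 30634031 to 30637897, minus strand), had 17.5, 15.7 and 17.1 FPKM in Ljasn1-2 roots S, against 69.6, 60.8 and 43.2 FPKM in Ljasn1-2 roots NS, and 16.3, 18.7 and 15.7 FPKM in WT roots S, against 42.9, 46.7 and 39.6 FPKM in WT roots NS. The S libraries lay within a narrow range well under all NS libraries (-1.70 ± 0.20 and -1.30 ± 0.14, adjusted p = 0.00084 and 0.00065). LotjaGi5g1v0249500, a pectinesterase with an inhibitor domain named after number 7 of the Arabidopsis set, was at 0 in every shoot library. It had 3.27, 2.58 and 4.46 FPKM in Ljasn1-2 roots S, against 16.4, 19.1 and 8.75 FPKM in Ljasn1-2 roots NS, and 2.77, 3.31 and 3.73 FPKM in WT roots S, against 9.17, 10.3 and 11.0 FPKM in WT roots NS (-1.79 ± 0.29 and -1.39 ± 0.14, adjusted p = 0.0036 and 0.00047).

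A second polygalacturonase named after Arabidopsis At3g15720 went the opposite way to the first. LotjaGi3g1v0009600 (chromosome 3, 1072855 to 1078017, plus strand) had 7.23, 5.30 and 4.99 FPKM in Ljasn1-2 roots S, against 23.6, 22.5 and 12.7 FPKM in Ljasn1-2 roots NS, and 4.93, 8.22 and 5.0001 FPKM in WT roots S, against 30.6, 23.9 and 18.7 FPKM in WT roots NS. It was called lower in S in both genotypes (-1.56 ± 0.26 and -1.85 ± 0.24, adjusted p = 0.0036 and 0.0015), and its shoot libraries held no more than 0.0299 FPKM. The non-catalytic subunit LotjaGi4g1v0165800, named AroGP2 after the tomato protein, had 5.19, 5.59 and 10.2 FPKM in Ljasn1-2 roots S, against 18.7, 17.1 and 21.4 FPKM in Ljasn1-2 roots NS, and 5.70, 6.76 and 12.9 FPKM in WT roots S, against 26.9, 26.4 and 29.0 FPKM in WT roots NS. It was called lower in both (-1.38 ± 0.24 and -1.66 ± 0.27, adjusted p = 0.0051 and 0.0037), and the 2 other non-catalytic subunits were called in neither genotype.

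The pectinesterase inhibitors had 3 of 4 members tested called lower in S roots of Ljasn1-2 and 2 of 4 in WT, and none of the 4 called higher. LotjaGi1g1v0764700, which failed the filter in both, was at least 80.5-fold higher in S roots of Ljasn1-2 (189 reads, against 0) and 33.2-fold higher in those of WT (counting interval 12.6 to 124). The most abundant member of the whole family, LotjaGi4g1v0454800, named pectinesterase inhibitor 10 (chromosome 4, 82647984 to 82649487, minus strand), had 103, 112 and 73.6 FPKM in Ljasn1-2 roots S, against 247, 205 and 187 FPKM in Ljasn1-2 roots NS, and 115, 84.9 and 88.2 FPKM in WT roots S, against 179, 193 and 151 FPKM in WT roots NS. No S library reached the lowest NS library, and the differences were -1.15 ± 0.23 (adjusted p = 0.0084) and -0.86 ± 0.19 (adjusted p = 0.017). In WT that call was lost without WT roots NS replicate 1 or 2 (adjusted p = 0.0708 and 0.0788) or without S replicate 2 (adjusted p = 0.0798).

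LotjaGi3g1v0436700, named pectinesterase inhibitor 9, had 9.56, 5.90 and 4.32 FPKM in Ljasn1-2 roots S, against 31.7, 22.8 and 11.0 FPKM in Ljasn1-2 roots NS, and 8.40, 12.7 and 6.42 FPKM in WT roots S, against 28.6, 24.5 and 15.9 FPKM in WT roots NS. The WT groups did not overlap, and neither did those of Ljasn1-2, but both calls (-1.53 ± 0.39 and -1.25 ± 0.28, adjusted p = 0.024 and 0.017) rested on single libraries. The Ljasn1-2 call was lost without roots NS replicate 1 or 2 or roots S replicate 2 (adjusted p = 0.0726, 0.0851 and 0.0893), and the WT call without roots NS replicate 1 or 2 or roots S replicate 1 (adjusted p = 0.0602, 0.0659 and 0.0654). Its span overlaps by 1004 bases a methionine aminopeptidase gene on the opposite strand, LotjaGi3g1v0436800, which was at 12.8 to 22.4 FPKM in all libraries.

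The same question in shoots gave few calls. In Ljasn1-2 shoots 3 of 64 members were called higher in S and 7 lower (4.69% and 10.9%), beside 6.05% and 5.81% of all genes tested. In WT shoots 2 were higher and 2 lower (3.12% each), beside 3.43% and 2.75% of all genes, so that the members stood near the background. The replicate numbers of WT shoots, which paired the libraries in the data, gave 16 calls as a block, 7 higher and 9 lower (10.9% and 14.1%), beside 13.6% and 9.49% of all genes with the block. None of the 4 WT calls and 3 of the 10 Ljasn1-2 calls were made in every fit without 1 library: the WT count was 0 without shoots NS replicate 2 or shoots S replicate 2 or 3, 1 without NS replicate 3, 2 without S replicate 1 and 7 without NS replicate 1, and the Ljasn1-2 count was 6 without shoots NS replicate 2, 5 without S replicate 1 or 2 and 4 without S replicate 3.

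Only 3 members were called in shoots of both genotypes. LotjaGi4g1v0454500, named pectinesterase 2 after the orange enzyme (chromosome 4, 82621420 to 82625022, minus strand), had 3.34, 3.86 and 3.09 FPKM in Ljasn1-2 shoots S, against 1.12, 2.01 and 1.87 FPKM in Ljasn1-2 shoots NS, and 3.81, 3.68 and 4.58 FPKM in WT shoots S, against 2.31, 1.41 and 1.99 FPKM in WT shoots NS. S shoots were above NS shoots in every library (0.74 ± 0.15 and 0.80 ± 0.15, adjusted p = 0.013 and 0.018), and the calls were lost without S replicate 2 in Ljasn1-2 (adjusted p = 0.0544) and without NS replicate 2, S replicate 2 or S replicate 3 in WT (adjusted p = 0.0691, 0.0584 and 0.0988).

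The other 2 were lower in S shoots. LotjaGi3g1v0407500, a pectinesterase with an inhibitor domain named U1 after a tomato protein, had 10.6, 13.1 and 10.3 FPKM in Ljasn1-2 shoots S, against 22.0, 23.5 and 17.3 FPKM in Ljasn1-2 shoots NS, and 14.2, 13.0 and 14.8 FPKM in WT shoots S, against 19.97, 19.7 and 20.2 FPKM in WT shoots NS. The groups did not overlap (-0.83 ± 0.14 and -0.48 ± 0.10, adjusted p = 0.0053 and 0.028), and the Ljasn1-2 call held without any 1 library. It was also lower in S roots (-1.03 ± 0.23 and -0.88 ± 0.26, adjusted p = 0.014 and 0.046, lost without Ljasn1-2 roots S replicate 1 or 2 at 0.0524 and 0.059, and in all WT fits but that without S replicate 3 at 0.0925 to 0.1452). The polygalacturonase LotjaGi6g1v0253700 had 6.64, 6.72 and 6.89 FPKM in Ljasn1-2 shoots S, against 10.9, 14.02 and 9.94 FPKM in Ljasn1-2 shoots NS, and 8.48, 7.53 and 6.82 FPKM in WT shoots S, against 10.3, 12.6 and 11.6 FPKM in WT shoots NS (-0.69 ± 0.13 and -0.54 ± 0.12, adjusted p = 0.0085 and 0.037). Without WT shoots NS replicate 2 or 3 or S replicate 2 or 3, the WT calls of these genes had adjusted p values of 0.0899 to 0.181, and without S replicate 1 that of LotjaGi3g1v0407500 was 0.0594.

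**Figure D4:**
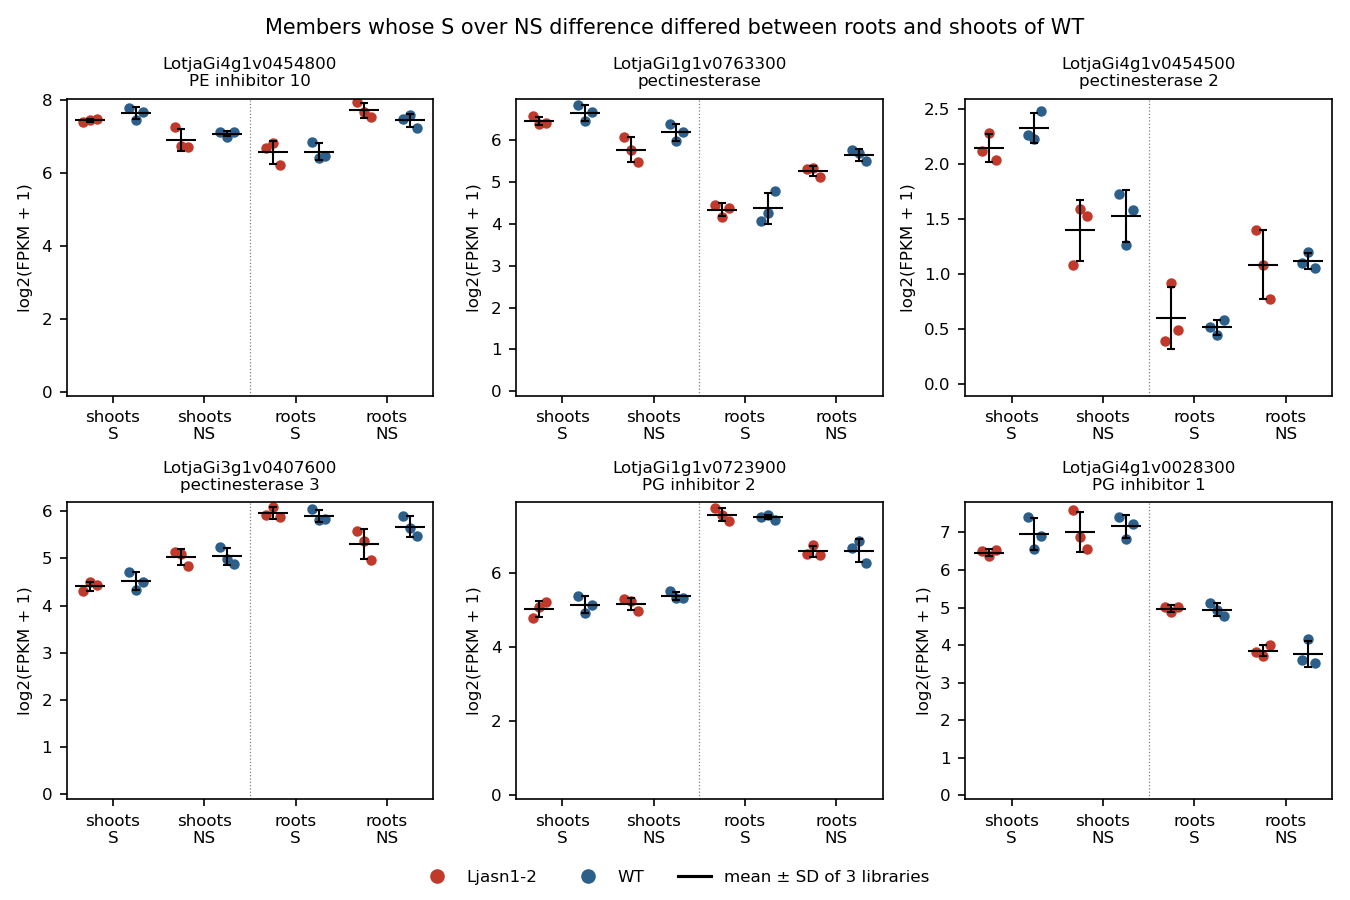
The S over NS difference of these 6 members differed between roots and shoots of WT, and each panel gives log2(FPKM + 1) in each library, with shoots left of roots and S left of NS. Points are libraries (Ljasn1-2 in red, WT in blue) and lines are the mean ± SD of 3. The 3 genes called lower in the interaction, LotjaGi4g1v0454800, LotjaGi1g1v0763300 and LotjaGi4g1v0454500, have a higher mean in S than in NS shoots and a lower one in S than in NS roots, and the other 3 have a higher mean in S than in NS roots.

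Whether the S over NS difference itself differed between organs was tested as an interaction over the 12 WT libraries, given as the difference in roots minus that in shoots. Of 92 members tested, 18 were called higher and 28 lower (19.6% and 30.4%), beside 8.62% and 10.5% of all genes. The 6 members at 1 FPKM or more in every roots S library and below it elsewhere were all among the 18. They passed the filter through the roots S libraries alone and were bound to differ. Any member that passed it through the roots NS libraries alone was likewise bound to differ, on the lower side. The fits without 1 library called 35 to 45 of 86 to 92 members tested. Of the 46 calls, 40 were made in every such fit that tested the member. The interaction shares its libraries with the WT comparisons above. LotjaGi1g1v0017300 (6.09 ± 0.18), LotjaGi3g1v0292600 (4.95 ± 0.18) and LotjaGi4g1v0408500 (2.51 ± 0.17) of the nodulated root set had the lowest adjusted p values (2.9e-10, 1.2e-09 and 4.4e-07). Of these, LotjaGi1g1v0017300 and LotjaGi3g1v0292600 belong to the 6 that were bound to differ. By class 8 polygalacturonases were higher and 8 lower, 2 and 7 pectinesterases with an inhibitor domain, 4 and 6 other pectinesterases and 2 and 4 pectate lyases. The higher counts include the 6 that were bound to differ: 3 polygalacturonases, 1 pectinesterase with an inhibitor domain, 1 other pectinesterase and 1 pectate lyase. The numbers tested in each class are not given here, so the classes are not compared. Both pectinesterase inhibitors called were lower, and both polygalacturonase inhibitors called were higher.

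A few abundant members turned round between the organs. LotjaGi4g1v0454800, the pectinesterase inhibitor lower in S roots, had 167, 174 and 179 FPKM in Ljasn1-2 shoots S, against 153, 106 and 105 FPKM in Ljasn1-2 shoots NS, and 222, 176 and 202 FPKM in WT shoots S, against 139, 128 and 139 FPKM in WT shoots NS. All S shoots were above all NS shoots. The shoot difference was 0.54 ± 0.16 in Ljasn1-2 (adjusted p = 0.065) and 0.56 ± 0.13 in WT (adjusted p = 0.046), with the WT call lost without any 1 of 5 libraries (adjusted p = 0.0716 to 0.2135), and the interaction was -1.42 ± 0.23 (adjusted p = 0.00091), which was called without any 1 library.

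The pectinesterase LotjaGi1g1v0763300, named after a kiwifruit enzyme (chromosome 1, 133601377 to 133605841, minus strand), had the same form. Its level was 93.9, 81.8 and 84.3 FPKM in Ljasn1-2 shoots S, against 66.5, 53.4 and 43.7 FPKM in Ljasn1-2 shoots NS, and 113, 86.0 and 100 FPKM in WT shoots S, against 82.5, 62.2 and 72.0 FPKM in WT shoots NS. In roots it was 20.9, 16.9 and 19.9 FPKM in Ljasn1-2 S, against 38.8, 39.4 and 33.9 FPKM in Ljasn1-2 NS, and 15.7, 18.1 and 26.6 FPKM in WT S, against 53.6, 50.8 and 43.9 FPKM in WT NS. Within each genotype every S library was thus above every NS library in shoots and below every one in roots. The root differences were -0.93 ± 0.16 and -1.29 ± 0.21 (adjusted p = 0.0044 and 0.0043), the shoot differences 0.68 ± 0.16 in Ljasn1-2 (adjusted p = 0.023, lost in 5 of the 6 fits without 1 library at 0.0571 to 0.0986) and 0.46 ± 0.15 in WT (adjusted p = 0.13, or 0.0016 with the replicate block), and the interaction in WT -1.75 ± 0.27 (adjusted p = 0.0006). LotjaGi4g1v0454500 completed the set, with an interaction of -1.40 ± 0.18 (adjusted p = 0.00015) and a root difference in WT of -0.60 ± 0.11 (adjusted p = 0.0063).

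In the other direction, LotjaGi3g1v0407600, named pectinesterase 3 after the bean enzyme, was at 18.7 to 21.5 FPKM in Ljasn1-2 shoots S, against 27.5 to 34.3 FPKM in Ljasn1-2 shoots NS, and at 57.4 to 67.5 FPKM in Ljasn1-2 roots S, against 30.1 to 46.8 FPKM in Ljasn1-2 roots NS. Its differences were -0.62 ± 0.12 in shoots (adjusted p = 0.011, up to 0.0567 without 1 library) and 0.66 ± 0.20 in roots (adjusted p = 0.046, up to 0.174 without 1 library). In WT they were -0.52 ± 0.14 and 0.23 ± 0.17 and were not called (adjusted p = 0.068 in shoots, or 0.0023 with the replicate block, and 0.39 in roots), and the interaction of 0.75 ± 0.22 (adjusted p = 0.028) was lost without any 1 of 7 of the 12 libraries, at up to 0.0763.

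The comparison of organs within a genotype and a growth condition tested 81 to 86 members, of which 16 to 20 had passed the filter through root libraries alone and 3 or 4 through shoot libraries alone, and these were bound to differ. In NS plants, 15 of 81 members were called higher in shoots and 35 lower in Ljasn1-2 (18.5% and 43.2%), beside 26.3% and 26.4% of all genes, and 15 and 38 of 84 in WT (17.9% and 45.2%), beside 26.3% and 26.2% of all genes. In S plants, 22 and 43 of 86 were called in Ljasn1-2 (25.6% and 50%), beside 27.4% and 27.1%, and 23 and 40 of 84 in WT (27.4% and 47.6%), beside 27.6% and 27.5%. The members' median difference was -0.38, -0.32, -0.43 and -0.39 in the order of these comparisons, against -0.03, -0.04, -0.06 and -0.05 for all genes. These comparisons share their libraries with those of S and NS, and the S ones include the nodulated root set.

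The counts on the root side were smaller when a root library was left out, which leaves 2 root libraries, so that a gene needs a shoot library at 1 FPKM to be tested. In Ljasn1-2 NS, 17, 14 and 23 of 65 members were then called lower in shoots without roots replicate 1, 2 or 3, beside 17.9%, 16.4% and 23.7% of all genes, and the count in both directions was 28, 26 and 35. In WT NS 17 of 65, 17 of 64 and 20 of 63 were called lower, and 30, 29 and 34 in both directions. In Ljasn1-2 S 22 of 65, 22 of 66 and 25 of 64 were called lower, and 42, 41 and 48 in both directions. In WT S 23 of 64, 20 of 64 and 25 of 65 were called lower, beside 22, 23 and 23 called higher. The shares of all genes are given here for Ljasn1-2 NS only, so the other counts are not set against the background.

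On the root side 9 members, 4.81% of the family, were at 1 FPKM or more in all 12 root libraries and below 1 FPKM in all 12 shoot libraries, beside 2.1% of all genes. LotjaGi3g1v0207900 stood highest of these in NS roots and had 0.662 FPKM or less in shoots, with shoot over root differences of -5.60 ± 0.25 and -5.42 ± 0.12 in Ljasn1-2 and WT NS and of -3.75 ± 0.14 and -3.92 ± 0.15 in Ljasn1-2 and WT S. LotjaGi1g1v0763400, named after the same Arabidopsis gene as LotjaGi5g1v0249500 and the neighbour of LotjaGi1g1v0763300, was at 16.6 to 43.8 FPKM in roots and 0.304 to 0.992 FPKM in shoots (-3.66 ± 0.19 and -4.09 ± 0.20 in Ljasn1-2 and WT NS, -4.65 ± 0.16 and -4.70 ± 0.14 in Ljasn1-2 and WT S). Its neighbour LotjaGi1g1v0763300 was higher in shoots of S plants, by 2.12 ± 0.15 in Ljasn1-2 and 2.28 ± 0.21 in WT. In NS plants it was so by 0.51 ± 0.18 in Ljasn1-2 (adjusted p = 0.040, lost in 5 of the 6 fits without 1 library at 0.0776 to 0.1156) and by 0.53 ± 0.16 in WT (adjusted p = 0.021, lost in 3 of them at 0.0547 to 0.0728). Among the 9 members, LotjaGi5g1v0249500 and LotjaGi6g1v0071000, had no read in any shoot library (1.07% of the family, beside 0.192% of all genes with the same pattern).

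Fewer members were placed in shoots. Only 2 (1.07%, beside 2.21% of all genes) were at 1 FPKM or more in all 12 shoot libraries and below 1 FPKM in all roots, among them LotjaGi1g1v0724000, a polygalacturonase inhibitor (chromosome 1, 129522624 to 129525421, minus strand) at 2.13 to 6.34 FPKM in shoots and 0.0153 to 0.219 FPKM in roots. LotjaGi1g1v0764700, named pectinesterase inhibitor 6 (chromosome 1, 133735921 to 133737058, minus strand), had 17.4, 12.4 and 11.7 FPKM in Ljasn1-2 shoots NS, against 0 in the 3 Ljasn1-2 roots NS libraries, which is at least 848-fold higher. In WT NS it had 22.8, 14.8 and 13.8 FPKM in shoots, against 0.0633, 0 and 0 FPKM in roots, a ratio of 776 (counting interval 303 to 2850). Nodulated roots had 1.31, 1.66 and 0.886 FPKM in Ljasn1-2 and 0.471, 1.25 and 0.486 FPKM in WT.

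The polygalacturonase with the highest mean level was also a shoot gene. LotjaGi6g1v0184000 (chromosome 6, 47694774 to 47699758, minus strand) was at 62.4 to 91.8 FPKM in shoots and 11.0 to 16.5 FPKM in roots, with differences of 2.39 to 2.63 in the 4 comparisons, and was not called for growth condition in either organ. LotjaGi4g1v0028300, the polygalacturonase inhibitor that rose in S roots, was still higher in shoots, at 81.2 to 192 FPKM, with differences of 3.16 ± 0.25 and 3.41 ± 0.22 in Ljasn1-2 and WT NS and of 1.49 ± 0.14 and 2.01 ± 0.22 in Ljasn1-2 and WT S. The polygalacturonase LotjaGi5g1v0237800 was at 13.9 to 23.2 FPKM over the 24 libraries. The beta-like non-catalytic subunit LotjaGi2g1v0320200 was at 55.02 to 94.9 FPKM and was called lower in shoots of S plants (-0.56 in Ljasn1-2 and -0.50 in WT, each lost without some single libraries at up to 0.0599 and 0.0996). LotjaGi1g1v0285200, a pectinesterase with an inhibitor domain named after number 34 of the Arabidopsis set, was at 17.0 to 33.4 FPKM in shoots and 36.9 to 63.4 FPKM in roots and was called lower in shoots in all 4 comparisons (-0.70 to -1.33). LotjaGi4g1v0225600, named pectate lyase 22, was at 26.6 to 45.7 FPKM in shoots and 25.02 to 68.3 FPKM in roots.

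The study's main contrast, Ljasn1-2 against WT, gave 1 call in the family over the 4 comparisons. In shoots NS 1 of 63 members was called higher and none lower, beside 0.34% and 0.0928% of all genes. In shoots S none of 64 was called (background 0.05% and 0.0562%), in roots NS none of 83 (0.0186% and 0.0247%) and in roots S none of 86 (0.0123% and 0.0185%). At an unadjusted p under 0.05 limma gave 1 higher and 7 lower in shoots S, 3 and 6 in roots NS, and 2 and 2 in roots S, and limma with voom weights called 1 member in shoots NS and 0 in the other 3. The replicate numbers paired the libraries in shoots NS, roots NS and roots S, and with them as a block the calls were 2, 9 and 1. In roots NS 3 of 83 were higher and 6 lower (3.61% and 7.23%), beside 2.08% and 2.39% of all genes with the block. Of all genes in shoots NS it called 1.01% higher and 0.712% lower, and of those in roots S 0.265% higher and 1.35% lower.

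The single call was LotjaGi4g1v0429500, a polygalacturonase by its best match to grapevine, for which the table lists no domain (chromosome 4, 80375823 to 80386628, plus strand). In shoots NS it had 8.60, 13.0 and 15.1 FPKM in Ljasn1-2, against 2.74, 3.06 and 3.58 FPKM in WT, and every mutant library was above every WT library (1.65 ± 0.19, adjusted p = 0.012). In roots NS it had 13.9, 16.5 and 46.4 FPKM in Ljasn1-2, against 3.20, 2.89 and 4.23 FPKM in WT, which was not called (2.39 ± 0.41, adjusted p = 0.23) except with the replicate block (adjusted p = 0.0042) and without the high Ljasn1-2 roots NS replicate 3 (1.88, adjusted p = 0.0269). Under S conditions it had 3.12, 4.26 and 3.91 FPKM in Ljasn1-2 shoots, against 2.78, 2.85 and 3.79 FPKM in WT shoots, and 3.21, 3.66 and 12.5 FPKM in Ljasn1-2 roots, against 2.43, 2.26 and 4.05 FPKM in WT roots, with neither called (0.20 ± 0.14 and 0.74 ± 0.43, adjusted p = 0.91 and 1).

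The limits of this call are its libraries and its place in the genome. In shoots NS it was lost without Ljasn1-2 replicate 2 or 3 or WT replicate 2 (adjusted p = 0.1075, 0.0703 and 0.0532) and with no filter on low values (adjusted p = 0.0586). The whole span of LotjaGi4g1v0429500 overlaps LotjaGi4g1v0429600 on the opposite strand (80375823 to 80387844), named after the mitogen-activated protein kinase MMK2, which was at 0.927 to 1.72 FPKM in shoots and 0.0188 to 0.258 FPKM in roots and did not differ by genotype beyond its spread in shoots NS (-0.04 ± 0.14, adjusted p = 1). The strand setting of the counting is not given in the sources used here, so reads of the pair cannot be told apart.

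The difference between growth conditions of LotjaGi4g1v0429500 differed between the genotypes in shoots. S was lower than NS in Ljasn1-2 shoots (-1.45 ± 0.19, adjusted p = 0.0012) but did not differ from it beyond the spread in WT shoots (0.00 ± 0.14, adjusted p = 0.996), and the interaction, -1.45 ± 0.25, was called (adjusted p = 0.035). It was the only member called of 64 (0 higher and 1 lower), beside 0.00601% and 0.21% of all genes. The call was kept only without Ljasn1-2 shoots NS replicate 1 and lost without any 1 of the other 11 libraries (adjusted p = 0.061 to 0.1363), and it was not made in a fit of all 24 libraries (adjusted p = 0.917). In Ljasn1-2 roots the S over NS difference was -1.85 ± 0.56 (adjusted p = 0.043, lost without NS replicate 2 or 3 or S replicate 1 or 2). The same interaction in roots called 0 of 95 members and 0% of all genes in limma, with 5 higher and 3 lower at an unadjusted p under 0.05, and voom weights were not applied to it.

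**Figure D5:**
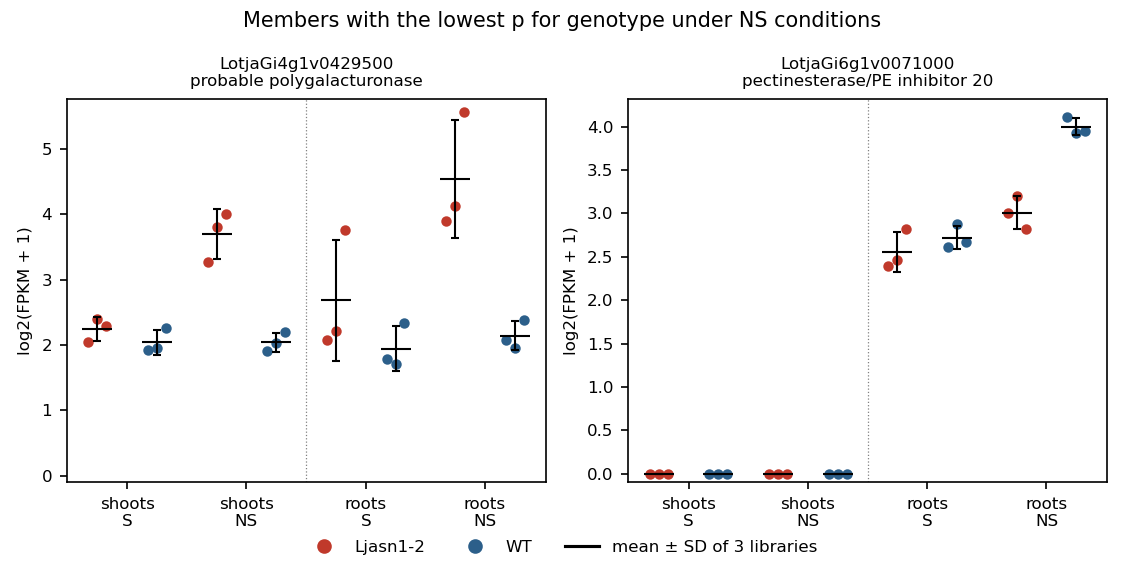
The 2 members with the lowest adjusted p between Ljasn1-2 and WT in NS plants, as log2(FPKM + 1) in each library, with shoots left of roots and S left of NS. Points are libraries (Ljasn1-2 in red, WT in blue) and lines are the mean ± SD of 3. LotjaGi4g1v0429500 lies above all WT libraries in every Ljasn1-2 library of NS shoots and roots, and LotjaGi6g1v0071000 lies below WT in every Ljasn1-2 library of NS roots.

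In roots NS the lowest adjusted p belonged to LotjaGi6g1v0071000, a root-only pectinesterase with an inhibitor domain named after number 20 of the Arabidopsis set (chromosome 6, 13509276 to 13513149, minus strand). It had 7.003, 8.21 and 6.08 FPKM in Ljasn1-2, against 16.3, 14.3 and 14.5 FPKM in WT. The groups were far apart, but the difference (-0.99 ± 0.14) did not pass the adjustment over all genes (adjusted p = 0.15) and did so with the replicate block (adjusted p = 0.0055) and in a fit of all 24 libraries (adjusted p = 4.2e-05). In roots S it had 4.25, 4.50 and 6.04 FPKM in Ljasn1-2, against 5.13, 6.33 and 5.37 FPKM in WT. Its S over NS difference was -0.45 ± 0.18 in Ljasn1-2 (adjusted p = 0.098, or 0.043 with the replicate block) and -1.28 ± 0.14 in WT (adjusted p = 0.00054), and the difference between these, 0.83 ± 0.21, was not called (adjusted p = 0.9).

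With the replicate block 7 other members were called in roots NS. It called the pectinesterase LotjaGi1g1v0763300 (-0.39, adjusted p = 0.029), its neighbour LotjaGi1g1v0763400 (-0.38, adjusted p = 0.034) and the non-catalytic subunit LotjaGi4g1v0165800 (-0.51, adjusted p = 0.015) lower in Ljasn1-2, and so the polygalacturonase LotjaGi3g1v0386400 (-0.54, adjusted p = 0.049) and the pectinesterase LotjaGi3g1v0407600 (-0.37, adjusted p = 0.048). LotjaGi3g1v0386400 overlaps by 8489 bases the member LotjaGi3g1v0386500 on the opposite strand, and reads of this pair cannot be told apart either. The pectate lyase LotjaGi4g1v0225600 (0.35, adjusted p = 0.049) and LotjaGi5g1v0249400_LC, a pectinesterase with an inhibitor domain (0.70, adjusted p = 0.029), were called higher. LotjaGi5g1v0249400_LC had 1.82, 1.85 and 1.80 FPKM in Ljasn1-2 roots NS, against 1.17, 0.575 and 0.529 FPKM in WT roots NS, and no read in shoots. LotjaGi4g1v0165800 was the second member called in shoots NS with the block (-0.60, adjusted p = 0.013), where it had 11.4, 18.9 and 19.6 FPKM in Ljasn1-2, against 19.7, 26.4 and 30.2 FPKM in WT. Its groups were apart there by a narrow margin, and each mutant library was below the WT library of its own number. In roots S the block called the polygalacturonase LotjaGi6g1v0253700, at 32.1, 24.3 and 26.8 FPKM in Ljasn1-2, against 19.1, 16.1 and 16.0 FPKM in WT (0.67 ± 0.17, adjusted p = 0.80 without and 0.012 with the block).

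In shoots S, where the numbers did not pair the libraries, the 2 members with the lowest p were far from the threshold. They were the polygalacturonase LotjaGi6g1v0222700, at 7.57, 8.96 and 8.75 FPKM in Ljasn1-2, against 11.8, 10.6 and 10.001 FPKM in WT (-0.33 ± 0.11, adjusted p = 0.58), and the pectate lyase LotjaGi2g1v0079900, at 2.52, 2.26 and 2.04 FPKM in Ljasn1-2, against 4.11, 2.52 and 3.44 FPKM in WT (-0.40 ± 0.15, adjusted p = 0.63). In both the groups did not overlap, in the second by a narrow margin. The median coefficient of variation of members within a group was 9.35% to 19.0%, and that of all genes 10.3% to 20.4%.

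Genes of pectin synthesis and other pectin-related enzymes, listed by their descriptions, gave calls in both directions between S and NS roots, where the shares of all genes called higher and lower were 12.7% and 15.1% in Ljasn1-2 and 11.6% and 12.5% in WT. Of 23 galacturonosyltransferases tested, which build homogalacturonan and related chains, 1 was called higher and 6 lower in S in Ljasn1-2 roots, and 1 higher and 4 lower in WT roots. Of 10 pectin acetylesterases 1 was higher and 4 lower in Ljasn1-2 roots, and 1 higher and 2 lower in WT roots. Of 5 UDP-glucuronate 4-epimerases, which supply the galacturonic acid precursor, limma called 0 in roots of either genotype, with 1 at an unadjusted p under 0.05 in Ljasn1-2, 2 in WT and 0 calls with voom weights. Of 4 genes named as pectin methyltransferases, 1 was called lower in WT roots and 0 in Ljasn1-2 roots, where neither the unadjusted p nor voom gave any. Of 17 beta-galactosidases 1 was higher and 2 were lower in both genotypes. Genes described by rhamnogalacturonan gave 1 higher of 8 in WT and 0 of 8 in Ljasn1-2, with 1 at an unadjusted p under 0.05 and 0 by voom. Genes outside the family that are annotated with the inhibitor domain shared by invertase and pectin methylesterase inhibitors gave 3 higher and 4 lower of 13 in Ljasn1-2 roots and 2 higher and 2 lower of 12 in WT roots. Between Ljasn1-2 and WT, limma and voom called 0 of the 74 to 79 genes of these 7 lists in each of the 4 comparisons, with 2 to 6 genes at an unadjusted p under 0.05 in shoots S, shoots NS and roots NS and 1 in roots S.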

How the data were processed

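PolyA RNA of shoots and roots was sequenced from 24 libraries in 8 groups of 3, each from 10 pooled plants; nothing in the labels says more on how the replicates were raised, so p-values measure the spread between these libraries. The submitters' processing notes name fastp, featureCounts 1.5.0-p3 and DESeq2 1.20.0; the libraries were made with a strand-marking protocol, but the strand setting of the counting is not given in the sources used here. The authors deposited 1 table of FPKM values, in which 384363 of 725832 values, 53.0%, all at 1 or more, had lost their decimal point. The point was put back from the steps that whole reads leave, the replicates and the falling order of the table, and 407 genes with another possible placement, none of them a member, were left out in an alternative. Identifiers and coordinates are those of the table (Lotus japonicus Gifu, LjG1.1), and the depth per library was recovered from the read steps. No column of another sample was present (0).

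Because the values are restored FPKM and not counts, limma 3.58.1 (R 4.3.3) with a mean-variance trend was run on log2(FPKM + 1), on the 6 libraries of each of 12 comparisons and the 12 of each of 3 interactions, for genes at 1 FPKM or more in 3 libraries. The design had assumed intact values. Tables were made with Python 3.11.15, pandas 2.3.3 and numpy 2.4.6. Folds against groups with no read use 3 reads over the group, and intervals are 95% and cover counting error only. The fits and the restoration were tested on simulated data. Named genes were the 2 highest of each class, the 3 largest calls in each direction of a comparison, the genotype calls or the 2 lowest p, up to 3 per interaction, and 3 of the highest ratio between groups; other members named were chosen after their values were seen. The family, the lists and the rule were set with earlier results of these data known, and the word used for the beta-like subunit was added after the descriptions were read. Alternatives were a pseudocount of 0.1, no filter or one at 5 FPKM, quantile normalization, voom weights on recovered reads, 1 fit of all 24 libraries, the replicate number as a block, and leaving out each library.

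The replicate numbers were taken as pairs where every same-numbered pair of libraries deviated together, with correlations over 0.1. This held between genotypes in roots NS (0.61 to 0.84), roots S (0.54 to 0.83) and shoots NS (0.45 to 0.69), and between growth conditions in Ljasn1-2 roots (0.39 to 0.76), WT roots (0.55 to 0.73) and WT shoots (0.41 to 0.71). The pairing was least clear between genotypes in shoots NS, where 2 of 3 libraries correlated best with their own number, against 3 of 3 in the other paired comparisons. The numbers come from the labels, which do not say what they stand for.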

Additional observations from a re-analysis of the deposited data

Results flagged for a closer look

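The interaction of growth condition and organ in WT, the S over NS difference in roots minus that in shoots, had its lowest adjusted p values in 3 members. It was 6.09 ± 0.18 for the pectinesterase LotjaGi1g1v0017300 (limma, adjusted p = 2.9e-10), 4.95 ± 0.18 for the polygalacturonase LotjaGi3g1v0292600 (adjusted p = 1.2e-09) and 2.51 ± 0.17 for LotjaGi4g1v0408500, a pectinesterase with an inhibitor domain (adjusted p = 4.4e-07). LotjaGi1g1v0017300 and LotjaGi3g1v0292600 passed the filter on low values through the roots S libraries alone and were bound to differ. The leghemoglobin genes were read in the same S root libraries and at no more than 1.03 FPKM elsewhere, and their part in these values was not tested.

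The S over NS difference of the polygalacturonase LotjaGi4g1v0429500 differed between the genotypes in shoots, by -1.45 ± 0.25 in Ljasn1-2 minus WT (adjusted p = 0.0351), and the call depended on single libraries as given above.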

How the results depend on the processing

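With the replicate block, where the numbers paired the libraries, the counts were 2 between genotypes in shoots NS (1 without it), 9 in roots NS (0 without it), 1 in roots S (0 without it) and 16 for S over NS in WT shoots (4 without it), and it moved no other count by that much there. In Ljasn1-2 shoots between conditions, in shoots S between genotypes and in the 4 comparisons of organs the libraries shared only a number. Not every same-numbered pair had a correlation over 0.1 there, and the block gave 16, 0 and 52 to 64 calls. With no filter the count was 0 in shoots NS between genotypes and 1 in WT shoots between conditions. A fit of all 24 libraries gave 3 in roots NS between genotypes, 2 in WT shoots between conditions and 0 for the interaction of genotype and condition in shoots. A filter at 5 FPKM gave 32 and 33 calls between organs in Ljasn1-2 and WT NS and 43 and 40 in Ljasn1-2 and WT S. Fewer members were tested with it, and their number is not given here. The shares of all genes are given above for some of these settings only. The other counts of this paragraph are not set against the background. Leaving out 1 library gave 0 to 1 calls between genotypes in shoots NS and in roots NS, 29 to 44 for S over NS in Ljasn1-2 roots, 30 to 48 in WT roots, 4 to 15 in Ljasn1-2 shoots and 0 to 7 in WT shoots. Between organs the ranges were 26 to 43 and 29 to 46 in Ljasn1-2 and WT NS and 41 to 59 and 43 to 58 in Ljasn1-2 and WT S, and for the interaction of genotype and condition in shoots 0 to 1. Of 729 values of named members under alternatives, 663 kept their direction and side of the threshold, 60 lost the call, 6 gained one and 0 turned round. The cause of these shifts was not tested. Depth limited only genes with a handful of reads in a group. Folds of such genes, where printed, were given with a counting interval or as a lower bound. Their log2 differences carry no such interval. LotjaGi3g1v0207900, for example, had 9 reads in WT shoots NS, and its roots over shoots ratio there was 1310 (counting interval 690 to 2870).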
